A study of Mus musculus with 15 samples.

Results

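The acute phase and endotoxin sensing genes described here are the plasma proteins that the liver makes in larger or smaller amounts during inflammation, the proteins that detect bacterial lipopolysaccharide, and the receptors and transcription factors of IL-1 and IL-6 signalling. They were taken from a list of 38 gene names, with no threshold on measured values. The array named 37 of them in a transcript cluster with a single gene symbol, among 22180 genes so named. They comprised 19 plasma proteins, 6 endotoxin sensing genes and 12 IL-1 and IL-6 signalling genes. Serpina3m was not analysed here. Livers came from male ApoE3L.CETP mice, which carry human APOE*3-Leiden and CETP transgenes and serve as a model of human-like lipoprotein metabolism. All 3 groups shared this genotype, and all were operated on after 6 weeks on a diet of 60% fat and 0.25% cholesterol. The labels give an age of 9 to 12 weeks, and livers were collected 20 days after surgery. RYGB mice (n = 6) had Roux-en-Y gastric bypass, in which food is rerouted past most of the stomach and the upper small intestine. Sham AL mice (n = 5) had sham surgery and free access to food, and BWm mice (n = 4) had sham surgery and were kept at the body weight of the RYGB mice. The design therefore sets bypass against sham surgery with free feeding (RYGB against Sham AL) and against sham surgery at matched weight (RYGB against BWm). Within sham surgery it sets matched weight against free feeding (BWm against Sham AL). Body weight was matched only between RYGB and BWm. The first 2 of these comparisons share the RYGB arrays, and each sham group serves in 2 comparisons.

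Lipopolysaccharide in the portal blood is bound by LBP, handed to CD14 and passed to the TLR4 and MD-2 (Ly96) receptor complex, which signals through MyD88 to NF-kB. Macrophages respond with IL-1 and IL-6, and IL-6 acts on hepatocytes through IL6RA and gp130 (Il6st) to activate STAT3, while C/EBP factors and NF-kB act on many of the same promoters. Hepatocytes then secrete acute phase proteins, and SOCS3 and the IL-1 receptor antagonist (Il1rn) limit the response.

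Upstream sequences of 4 members are shown because these genes were higher in RYGB livers in at least 1 comparison and hold matches to the motifs of these factors. Each is the 250 bases before the RefSeq transcription start on GRCm38.p6, written 5′ to 3′ on the gene's strand, with motif matches in capitals.
Apcs (chr1:172895055-172895304, minus strand): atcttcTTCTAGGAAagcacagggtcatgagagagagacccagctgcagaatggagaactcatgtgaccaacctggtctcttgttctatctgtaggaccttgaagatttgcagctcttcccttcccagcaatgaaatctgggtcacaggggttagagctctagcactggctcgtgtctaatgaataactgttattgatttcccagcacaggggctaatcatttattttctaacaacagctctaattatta
Lcn2 (chr2:32387740-32387989, minus strand): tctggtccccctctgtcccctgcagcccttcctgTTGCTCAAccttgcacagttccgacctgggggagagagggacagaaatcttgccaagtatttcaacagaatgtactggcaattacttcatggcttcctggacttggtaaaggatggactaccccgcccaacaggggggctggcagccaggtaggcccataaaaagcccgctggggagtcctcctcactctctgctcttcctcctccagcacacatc
Orm2 (chr4:63362199-63362448, plus strand): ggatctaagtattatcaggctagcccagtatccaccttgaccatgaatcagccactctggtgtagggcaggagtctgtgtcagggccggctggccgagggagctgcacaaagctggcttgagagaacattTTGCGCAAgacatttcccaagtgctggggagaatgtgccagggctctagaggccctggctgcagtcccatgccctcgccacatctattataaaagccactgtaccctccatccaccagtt
Steap4 (chr5:7960222-7960471, plus strand): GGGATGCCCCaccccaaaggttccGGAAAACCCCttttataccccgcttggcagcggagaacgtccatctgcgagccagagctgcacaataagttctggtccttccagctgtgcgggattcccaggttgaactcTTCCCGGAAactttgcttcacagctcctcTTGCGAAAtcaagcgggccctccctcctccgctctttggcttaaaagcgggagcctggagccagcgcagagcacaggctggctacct
The Apcs capitals are a STAT3 motif (TTCNNNGAA), those of Lcn2 and Orm2 are each a C/EBP motif (TTGCNNAA), and Steap4 holds, in order, a pair of NF-kB consensus matches, a STAT3 motif and a C/EBP motif. Both strands were searched, and none of the capitals of 1 motif overlap those of another in these windows. RefSeq promoters were matched for 29 of the 37 members, and not for the other 8: Cd14, Serpina10, Hp, Orm1, Lbp, Ly96, Tlr4 and Nfkbiz. A STAT3 motif lay in the windows of 7 of these 29 (24.1%), against 8.13% of 27025 genes with a promoter. A C/EBP motif lay in 12 of 29 (41.4%), against 10.8% of genes, and the NF-kB consensus in 4 of 29 (13.8%), against 8.23%. Itih3, Osmr, Stat3 and Il1rn, also called higher in RYGB livers in at least 1 comparison, had matched promoters without any of these motifs. All matches are of letters, and no binding was measured.

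The data are log2 signals from 15 arrays, 1 per mouse, which the titles number as biological replicates. The array medians lay between 3.89 and 4.02, and Pearson's r between any 2 arrays lay between 0.957 and 0.986 over transcript clusters. The array of Sham AL replicate 4 stood apart. On it, 662 genes lay over 1 log2 unit away from its group's remaining arrays, while the other 14 arrays had 53 to 128 such genes. The adrenal gene Cyp11b1 read 10.37 on it (at most 3.22 elsewhere) and the brown fat gene Ucp1 read 11.89 (at most 4.54 elsewhere). Values without this array are therefore given for the genes called in the comparisons with Sham AL. Sample descriptions carry an animal number, whose meaning the labels do not state. It was under 50 for RYGB replicates 1 to 3 and Sham AL replicate 1, and above 60 for the other mice, including every BWm mouse. Hepatocyte markers were high in every liver, with a summed level (log2 of the summed linear signals of 7 genes) of 14.68 to 14.87 in RYGB, 14.74 to 14.84 in Sham AL and 14.87 to 14.95 in BWm.

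Bypass livers had higher signals for a subset of these genes, led by Cd14 and Apcs, and for most of the others the test did not separate the groups. In RYGB against Sham AL, 5 of 37 members rose and 0 fell, at an adjusted p under 0.05 (limma over all 22180 genes, Benjamini-Hochberg). That is 13.5% of the members, and 1.38% of all genes were called in this comparison, 0.938% higher and 0.442% lower. The genes that rose were the plasma proteins Apcs and Itih3, the endotoxin receptor Cd14, and the signalling genes Osmr and Stat3. In RYGB against BWm, 7 members rose (Apcs, Orm2, Lcn2, Serpina10, Cd14, Il1rn and Steap4) and 1 fell (Il6ra), or 21.6% of the members beside 6.36% of all genes, 4.02% higher and 2.34% lower. In BWm against Sham AL, 1 member rose (Il6ra) and 0 fell, or 2.7% beside 2.84% of all genes, 1.53% higher and 1.3% lower. The tests called 11 members in at least 1 comparison and 26 in none. The members had higher signals than most genes, with means from 4.69 (Tlr4) to 12.35 (Hpx) beside a median gene mean of 4.5. Among genes with a mean level of at least 5, 25% of members were called beside 4.7% of genes in RYGB against Sham AL. These shares were 27.8% beside 18.4% in RYGB against BWm, and 11.1% beside 11% in BWm against Sham AL. At an unadjusted p under 0.05, 23 members were higher and 2 lower in RYGB than in Sham AL, against 7.66% and 5.28% of all genes. The counts were 14 and 1 for RYGB against BWm (10.6% and 7.73% of all genes) and 9 and 3 for BWm against Sham AL (7.48% and 7.8%).

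The median log2 difference of the members was 0.32 in RYGB against Sham AL, with 30 of 37 above 0, and the median of all genes was -0.0029. By class it was 0.24 for the plasma proteins, 0.33 for the endotoxin sensing genes and 0.36 for the signalling genes. In RYGB against BWm the members' median was 0.19 with 24 of 37 above 0, and the class medians were 0.23, 0.11 and 0.01 in the same order. In BWm against Sham AL it was 0.12 with 23 of 37 above 0, and the class medians were 0.08, 0.12 and 0.22. These medians were small and moved with single arrays. In RYGB against BWm the members' median was 0.12 without RYGB replicate 3 and 0.11 without BWm replicate 1, and that of the plasma proteins was 0.15 without RYGB replicate 3. That of the endotoxin sensing genes was 0.03 and 0.02 without RYGB replicates 3 and 4, 0.19 without RYGB replicate 5, and 0, 0.2, 0.18 and 0.05 without BWm replicates 1 to 4. That of the signalling genes ran from -0.01 (without BWm replicate 2) to 0.04 (without RYGB replicate 5 or BWm replicate 4). In BWm against Sham AL the plasma protein median was 0.04 without BWm replicate 2 and 0.05 without Sham AL replicate 5, and the endotoxin sensing median was 0.06 without BWm replicate 2 or 3 and 0.07 without Sham AL replicate 4.

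Every RYGB array lay above every Sham AL array for 8 members (Apcs, Cp, Fga, Itih3, Serpina10, Cd14, Osmr and Stat3), a pattern of 1.58% of all genes, and below for 0 (0.812% of all genes). Every RYGB array lay above every BWm array for 5 members (Serpina10, Cd14, Tlr2, Il1rn and Steap4; 4.71% of all genes) and below for Il6ra alone (2.91%).

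**Figure D1:**
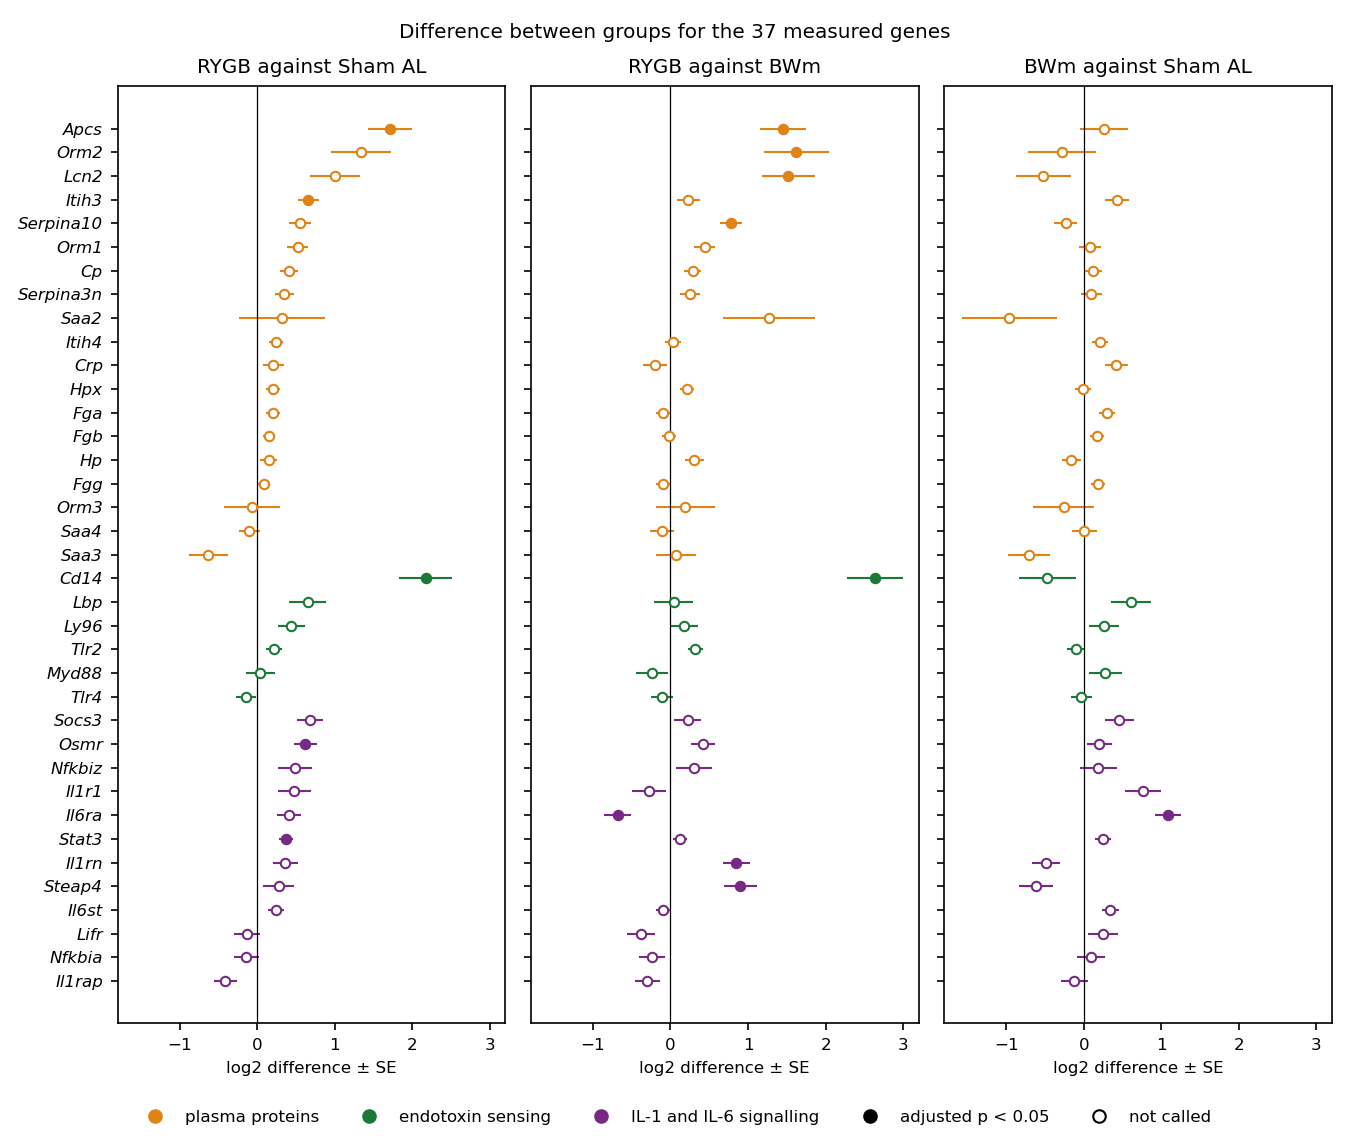
Log2 difference with its standard error for each of the 37 members (rows) in RYGB against Sham AL, RYGB against BWm and BWm against Sham AL (panels), coloured by class. Filled points have an adjusted p under 0.05. Cd14 stands farthest to the right in both RYGB panels (2.17 and 2.64), and Il6ra is the only filled point in the BWm against Sham AL panel.

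The number called against Sham AL depended on single arrays. Without Sham AL replicate 4 it was 2 (Apcs and Cd14), beside 1.43% of all genes. Leaving out RYGB replicate 6 (0.902% of all genes), or Sham AL replicate 1 (0.974%), also gave 2. Leaving out RYGB replicate 3 (1% of all genes) or 4 (0.794%) gave 3, as did Sham AL replicate 2 (0.649%), 3 (1.03%) or 5 (0.996%). Leaving out RYGB replicate 1 gave 11, beside 1.79% of all genes. With the animal number group (under 50 or above 60) as a block it was also 11, beside 1.71%. Cd14 and Apcs passed in both RYGB comparisons, Lcn2, Serpina10 and Il1rn passed in RYGB against BWm, and Il6ra passed in BWm against Sham AL, in all 24 alternative limma settings run. With the test that the study's design text names, run on 2 groups at a time with Benjamini-Hochberg adjustment, Cd14 (adjusted p = 0.092) and Apcs (0.09) did not pass against Sham AL, nor did Apcs (0.093), Lcn2 (0.14) and Il1rn (0.084) against BWm. Cd14 (0.033) and Serpina10 (0.043) against BWm, and Il6ra (0.046) in BWm against Sham AL, did. Subtracting each array's median moved the split of all calls against Sham AL from 208 higher and 98 lower to 286 higher and 80 lower. It gave 9 members higher, or 24.3% beside 1.65% of all genes.

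Among the plasma proteins, Apcs was the 1 that rose in both RYGB comparisons. It encodes serum amyloid P component, a pentraxin that is the main acute phase pentraxin of mice. Its log2 signal was 8.19 at the lowest, 9.26 at the median and 9.91 at the highest in RYGB. The 5 Sham AL livers read 7.02, 7.03, 7.42, 7.64 and 7.84, and the 4 BWm livers read 7.13, 7.41, 7.74 and 8.31. All 6 RYGB livers were above every Sham AL liver, and 5 of 6 were above every BWm liver. The difference was 1.71 ± 0.28 (SE) on the log2 scale against Sham AL, or 3.27-fold (limma, adjusted p = 0.0035), and 1.45 ± 0.30 against BWm, or 2.73-fold (adjusted p = 0.0054). Without Sham AL replicate 4 the first was 1.61 (adjusted p = 0.0072). In a piece of liver, a change in the number of cells of a type and a change in RNA per cell cannot be told apart.

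Orm2 encodes an alpha-1-acid glycoprotein, a plasma carrier of small lipophilic molecules. It read 8.71, 10.54 and 10.96 at the lowest, median and highest in RYGB. Sham AL livers read 8.43, 8.54, 8.70, 8.89 and 9.39, and BWm livers read 7.51, 8.21, 9.04 and 9.27. In each comparison 4 of 6 RYGB livers were above every sham liver, so the groups overlapped. Orm2 was 1.62 ± 0.42 higher in RYGB than in BWm, or 3.08-fold (limma, adjusted p = 0.025), and 1.34 ± 0.39 against Sham AL (adjusted p = 0.12). The BWm call was lost without RYGB replicate 4 (adjusted p = 0.056), 5 (0.054) or 6 (0.056) and without BWm replicate 3 (0.12) or 4 (0.074). Against Sham AL it passed without RYGB replicate 1 (1.63, adjusted p = 0.02).

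Lcn2 encodes lipocalin-2, which binds bacterial siderophores and so withholds iron. Hepatocytes secrete it in the acute phase and neutrophils store it. Its signal was 8.95, 10.77 and 11.39 at the lowest, median and highest in RYGB. Sham AL livers read 9.09, 9.23, 9.47, 9.74 and 9.74, and BWm livers read 8.60, 8.72, 8.80 and 9.61. One low RYGB liver overlapped each sham group, and 5 of 6 were above all of both. Lcn2 was 1.52 ± 0.34 higher than in BWm, or 2.87-fold (limma, adjusted p = 0.01), and 1.00 ± 0.32 higher than in Sham AL (adjusted p = 0.16). The latter passed without RYGB replicate 1 (1.3, adjusted p = 0.006).

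Serpina10 encodes the protein Z-dependent protease inhibitor of coagulation factor Xa. It read 9.85, 10.08 and 10.58 at the lowest, median and highest in RYGB. The Sham AL livers read 9.37, 9.42, 9.54, 9.71 and 9.80, and the BWm livers 9.00, 9.38, 9.44 and 9.53. No RYGB liver overlapped either sham group. The rise over BWm was 0.78 ± 0.14, or 1.72-fold (limma, adjusted p = 0.0025), and the difference from Sham AL was 0.55 ± 0.14 (adjusted p = 0.053).

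Itih3 encodes a heavy chain of the inter-alpha-trypsin inhibitors, which bind hyaluronan. Its signal was 10.61, 10.76 and 11.43 at the lowest, median and highest in RYGB. The Sham AL livers read 9.85, 10.12, 10.23, 10.34 and 10.44, all below every RYGB liver. The BWm livers read 10.48, 10.49, 10.70 and 10.83, above every Sham AL liver and within the RYGB range. Itih3 rose by 0.66 ± 0.14 over Sham AL, or 1.58-fold (limma, adjusted p = 0.025), and did not pass against BWm (0.23 ± 0.15, adjusted p = 0.48). Its call was lost without RYGB replicate 6 (adjusted p = 0.057) and without Sham AL replicate 1 (0.066), 3 (0.051) or 4 (0.057).

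**Figure D2:**
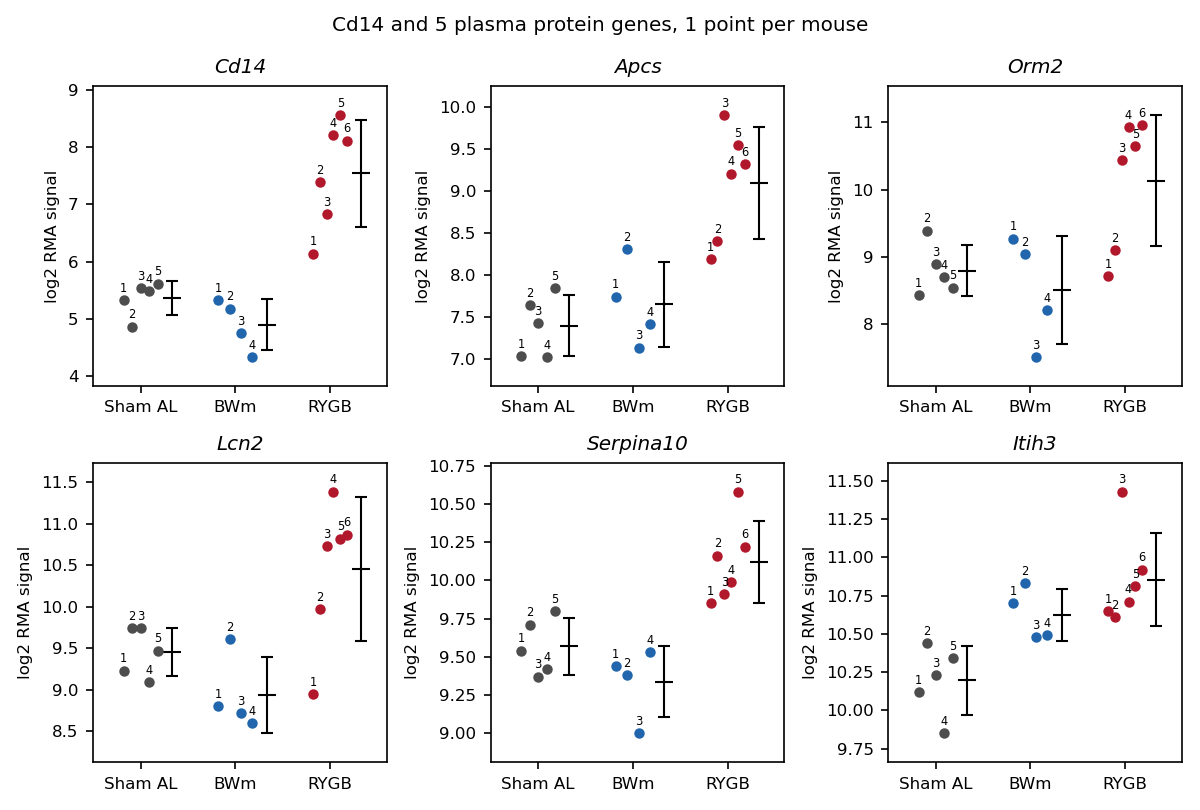
Log2 RMA signal of Cd14, Apcs, Orm2, Lcn2, Serpina10 and Itih3, with 1 point per mouse numbered by replicate and a bar at the group mean ± SD (5 Sham AL, 4 BWm and 6 RYGB mice). All RYGB points lie above both sham groups for Cd14 and Serpina10, and for Orm2 and Lcn2 RYGB replicate 1 falls among the sham livers.

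The serum amyloid A genes, which encode the most strongly inducible apolipoproteins of the acute phase in mice, did not pass in any comparison. Saa2 read 8.47, 8.82 and 12.18 at the lowest, median and highest in RYGB, 8.25 to 9.92 in Sham AL and 7.08 to 9.25 in BWm. Its difference was 0.32 ± 0.55 against Sham AL (limma, adjusted p = 0.87) and 1.27 ± 0.59 against BWm (adjusted p = 0.26). RYGB replicate 3 alone held the high value, and without it the differences were -0.25 (adjusted p = 0.86) and 0.71 (adjusted p = 0.36). A further cluster that carries more than 1 symbol, Saa2 among them, was also highest in RYGB replicate 3 (12.21), and its RYGB mean of 9.71 ± 1.36 (SD, n = 6) stood beside 9.18 ± 0.61 (n = 5) in Sham AL and 8.01 ± 0.96 (n = 4) in BWm. Saa3, which macrophages and fat cells also make, was -0.63 ± 0.25 in RYGB against Sham AL (adjusted p = 0.27). Saa4, the constitutive member, stayed between 11.44 and 12.26 on all arrays. The Saa, Orm and Serpina3 genes have near-identical relatives, so their probes can share signal.

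The other plasma proteins gave smaller differences. Orm1 was 0.52 ± 0.13 above Sham AL (limma, adjusted p = 0.057) and 0.44 ± 0.14 above BWm (adjusted p = 0.07). Cp, the copper-carrying ferroxidase ceruloplasmin, was 0.41 ± 0.11 above Sham AL with every RYGB liver above every Sham AL liver (adjusted p = 0.062). Orm3 was spread over 6.34 to 8.96 within RYGB and differed by -0.07 ± 0.36 from Sham AL (adjusted p = 0.97). Haptoglobin (Hp, which binds free haemoglobin) and hemopexin (Hpx, which binds haem) differed from Sham AL by 0.15 ± 0.11 and 0.20 ± 0.09 (adjusted p = 0.62 and 0.33). The fibrinogen chains Fga, Fgb and Fgg, the clot precursor, differed by 0.20, 0.15 and 0.09 from Sham AL and by -0.10, -0.02 and -0.10 from BWm, and none passed.

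Fga read 11.13, 11.18 and 11.35 at the lowest, median and highest in RYGB, 10.87, 11.00, 11.04, 11.10 and 11.12 in Sham AL, and 11.22, 11.27, 11.38 and 11.43 in BWm. Sham AL livers were thus the lowest of the 3 groups without overlap. Crp, a minor acute phase reactant in mice, read 10.35, 10.90 and 11.27 in RYGB, 10.47, 10.53, 10.56, 10.75 and 11.02 in Sham AL, and 10.99, 11.00, 11.16 and 11.18 in BWm, and the groups overlapped. Itih4 and the protease inhibitor Serpina3n were 0.24 ± 0.09 and 0.35 ± 0.12 above Sham AL (limma, adjusted p = 0.28 and 0.19). Both had their highest value of all 15 arrays in RYGB replicate 3.

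Cd14, the co-receptor that presents lipopolysaccharide to TLR4 on macrophages and that hepatocytes also make, had the largest difference of all members in both RYGB comparisons. Its log2 signal was 6.14, 7.75 and 8.56 at the lowest, median and highest in RYGB. The Sham AL livers read 4.87, 5.33, 5.49, 5.54 and 5.62, and the BWm livers read 4.34, 4.75, 5.18 and 5.33. Every RYGB liver was above every liver of both sham groups, and the RYGB livers were spread over more than 2 log2 units. Cd14 rose by 2.17 ± 0.34 over Sham AL, or 4.49-fold (limma, adjusted p = 0.0024), and by 2.64 ± 0.36 over BWm, or 6.22-fold (adjusted p = 0.00023). The first was 2.2 without Sham AL replicate 4 (adjusted p = 0.0031). The sham groups differed by -0.47 ± 0.37, BWm against Sham AL (adjusted p = 0.61).

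Markers of cells that carry CD14 were measured beside it. Of 10 Kupffer cell markers, 1 rose in RYGB against Sham AL (Adgre1, 0.64 ± 0.14, limma, adjusted p = 0.025), or 10% beside 1.38% of all genes. Against BWm 0 passed, beside 6.36% of all genes. In BWm against Sham AL Cd163 rose (1.07 ± 0.27, adjusted p = 0.036, and 0.055 without Sham AL replicate 4), or 10% beside 2.84%. The median log2 difference of the 10 markers was 0.42, 0.19 and 0.12 in these comparisons, in the order given. Without Sham AL replicate 4 Adgre1 was 0.57 above Sham AL (adjusted p = 0.058). Their summed level was 10.98 to 11.5 in RYGB, 10.7 to 11.25 in Sham AL and 10.68 to 11.39 in BWm. Of 9 markers of recruited monocytes or macrophages, 0 passed in RYGB against Sham AL. Against BWm 1 rose (Cd9, 0.78 ± 0.20, adjusted p = 0.026), or 11.1% beside 6.36% of all genes. In BWm against Sham AL Ly6c2 fell (-0.78 ± 0.19, adjusted p = 0.028, and 0.044 without Sham AL replicate 4), or 11.1% beside 2.84%. The medians of the 9 markers were 0.17, 0.44 and -0.23 in the same order. Their summed levels were 9.57 to 10.69, 9.35 to 10.43 and 9.46 to 9.99 in RYGB, Sham AL and BWm. Of 10 neutrophil markers, 0 passed in any comparison, and their medians were 0.36, 0.41 and -0.02 in the same order. Their summed levels were 7.13 to 7.99, 6.97 to 7.31 and 7.03 to 7.17 in RYGB, Sham AL and BWm. On the arrays of RYGB replicates 4 to 6, which were high for Cd14 and Lcn2, 4 of the 10 neutrophil markers lay above every other array, a pattern picked out after the values were seen. S100a8, a calprotectin subunit, read 3.67 to 4.38 there and at most 2.64 elsewhere. Retnlg read 3.14 to 4.0 against at most 2.83, the collagenase Mmp8 3.78 to 4.07 against at most 3.59, and the granule protein Ngp 4.27 to 4.51 against at most 3.36. The other 6 overlapped, and Ly6g read 2.01 to 2.2 there and 2.01 to 2.92 elsewhere. RYGB replicate 3 read 10.73 for Lcn2, beside 10.82 to 11.39 in replicates 4 to 6. Its S100a8, Retnlg, Mmp8 and Ngp read 2.57, 2.06, 3.26 and 3.22. RYGB replicate 2 read 7.39 for Cd14, beside 8.11 to 8.56 in replicates 4 to 6, and 2.52, 1.93, 3.15 and 3.12 for the same markers. Outside RYGB replicates 4 to 6, S100a8, Retnlg, Mmp8 and Ngp read under the lowest array median (3.89). Within these replicates, S100a8 in replicate 4 (3.67), Retnlg in 4 and 6 (3.7 and 3.14) and Mmp8 in 6 (3.78) were also under it. The signal of these markers over background was not measured. The part of the 3 marker lists in the Cd14 and Lcn2 results was not tested.

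The partners of CD14 did not pass. Lbp, the plasma protein that delivers lipopolysaccharide to CD14, read 8.93, 9.68 and 10.23 at the lowest, median and highest in RYGB. It read 8.45, 8.96, 8.98, 8.99 and 9.25 in Sham AL and 9.02, 9.31, 9.70 and 10.12 in BWm. Its values in RYGB and BWm covered much the same range, mostly above Sham AL, at 0.65 ± 0.24 and 0.61 ± 0.26 over Sham AL (limma, adjusted p = 0.22 and 0.26).

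Ly96, the MD-2 subunit that holds lipid A in the receptor, read 8.37, 9.24 and 9.56 in RYGB, 8.46, 8.52, 8.74, 8.86 and 8.94 in Sham AL, and 8.83, 8.87, 8.96 and 9.22 in BWm. The groups overlapped, and the difference from Sham AL was 0.44 ± 0.17 (limma, adjusted p = 0.25). Tlr4, the signalling receptor itself, was between 4.31 and 5.04 on all arrays and differed by -0.14 ± 0.13 from Sham AL and -0.11 ± 0.14 from BWm (adjusted p = 0.71 and 0.76). Tlr2, the receptor for bacterial lipopeptides, read 5.08, 5.17 and 5.37 in RYGB, 4.84, 4.86, 4.87, 5.13 and 5.16 in Sham AL, and 4.75, 4.87, 4.89 and 4.98 in BWm. Its RYGB livers were all above the BWm livers, by 0.32 ± 0.10 on average (adjusted p = 0.071). Myd88, the adaptor of these receptors and of the IL-1 receptor, read 6.55, 6.94 and 7.82 in RYGB, 6.56, 6.97, 7.0, 7.12 and 7.18 in Sham AL, and 6.69, 7.37, 7.42 and 7.51 in BWm, with overlap throughout.

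Of 19 further genes of endotoxin receptor signalling, 0 passed in RYGB against Sham AL. Against BWm 3 rose and 0 fell, or 15.8% beside 6.36% of all genes. They were Cd180 (0.58 ± 0.14, adjusted p = 0.019) and its partner Ly86 (0.50 ± 0.13, adjusted p = 0.025), which form a TLR4-like complex on B cells and macrophages, and Hsp90b1, the endoplasmic reticulum chaperone that folds Toll-like receptors (0.79 ± 0.12, adjusted p = 0.00043). Hsp90b1 was also the 1 gene of this list that fell in BWm against Sham AL (-0.52 ± 0.12, adjusted p = 0.024, and -0.54 without Sham AL replicate 4, adjusted p = 0.035), or 5.26% beside 2.84% of all genes.

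Il6ra, the ligand-binding IL-6 receptor chain, was highest in the weight-matched mice. The BWm livers read 9.52, 9.59, 9.71 and 9.75, and the Sham AL livers read 8.25, 8.39, 8.44, 8.77 and 8.90. RYGB livers read 8.60, 8.89 and 9.47 at the lowest, median and highest, all below every BWm liver and overlapping Sham AL. Il6ra rose by 1.09 ± 0.17 in BWm over Sham AL, or 2.13-fold (limma, adjusted p = 0.0023), and was lower in RYGB than in BWm (log2 difference -0.68 ± 0.17, 1.6-fold, adjusted p = 0.018). RYGB against Sham AL did not pass (0.41 ± 0.16, adjusted p = 0.24). The fall against BWm lost its call without BWm replicate 2 (adjusted p = 0.063) or 3 (0.059), and the BWm rise over Sham AL was 1.07 without Sham AL replicate 4 (adjusted p = 0.005).

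Il1rn, the secreted antagonist that blocks the IL-1 receptor, was lowest in BWm and widely spread in RYGB. RYGB livers read 4.91, 5.52 and 6.07 at the lowest, median and highest. Sham AL livers read 4.99, 5.00, 5.11, 5.18 and 5.24, and BWm livers read 4.53, 4.58, 4.66 and 4.67. Both RYGB and Sham AL lay wholly above BWm, and 4 of 6 RYGB livers lay above every Sham AL liver. The difference was 0.85 ± 0.17 over BWm, or 1.81-fold (limma, adjusted p = 0.0047), and 0.36 ± 0.16 over Sham AL (adjusted p = 0.35).

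Steap4 encodes a metalloreductase induced by IL-6 and TNF, and followed the same order of groups. RYGB livers read 9.06, 9.80 and 10.34 at the lowest, median and highest, Sham AL livers 9.28, 9.33, 9.39, 9.56 and 9.66, and BWm livers 8.64, 8.84, 8.84 and 8.98. No BWm liver reached either other group. The rise over BWm was 0.90 ± 0.21, or 1.86-fold (limma, adjusted p = 0.014), and it lost its call without BWm replicate 2 (adjusted p = 0.056). The difference from Sham AL was 0.28 ± 0.20 (adjusted p = 0.6). Of the 4 upstream sequences printed above, that of Steap4 alone held all 3 motifs.

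Osmr, the oncostatin M receptor that pairs with gp130, read 6.77, 6.81 and 7.20 at the lowest, median and highest in RYGB. Sham AL livers read 6.04, 6.07, 6.33, 6.35 and 6.57, all below RYGB, and BWm livers were split at 5.96, 6.34, 6.77 and 6.80. Osmr rose by 0.62 ± 0.15 over Sham AL, or 1.53-fold (limma, adjusted p = 0.046). Stat3, the transcription factor downstream of gp130, read 9.25, 9.42 and 9.60 in RYGB, 8.94, 9.04, 9.06, 9.10 and 9.10 in Sham AL, and 9.23, 9.25, 9.26 and 9.41 in BWm. Both RYGB and BWm lay wholly above Sham AL. Stat3 rose by 0.37 ± 0.09 in RYGB over Sham AL, or 1.29-fold (adjusted p = 0.042), and BWm was 0.25 ± 0.10 above Sham AL (adjusted p = 0.2). These calls lay close to the threshold. Osmr lost its call on leaving out any 1 of 10 arrays and Stat3 any 1 of 12 of the 15, with adjusted p up to 0.14 and 0.1. Without Sham AL replicate 4 they were 0.06 and 0.058.

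Socs3, the STAT3-induced inhibitor of gp130 signalling, read 5.41, 5.83 and 6.27 at the lowest, median and highest in RYGB. It read 4.95, 4.98, 5.14, 5.25 and 5.47 in Sham AL and 5.17, 5.47, 5.65 and 6.16 in BWm. Only the lowest RYGB liver fell within the Sham AL range, and the difference was 0.68 ± 0.17 (limma, adjusted p = 0.06). Its second, dimmer cluster had means of 3.91 ± 0.14 (SD, n = 6) in RYGB, 3.58 ± 0.21 (n = 5) in Sham AL and 3.76 ± 0.31 (n = 4) in BWm.

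**Figure D3:**
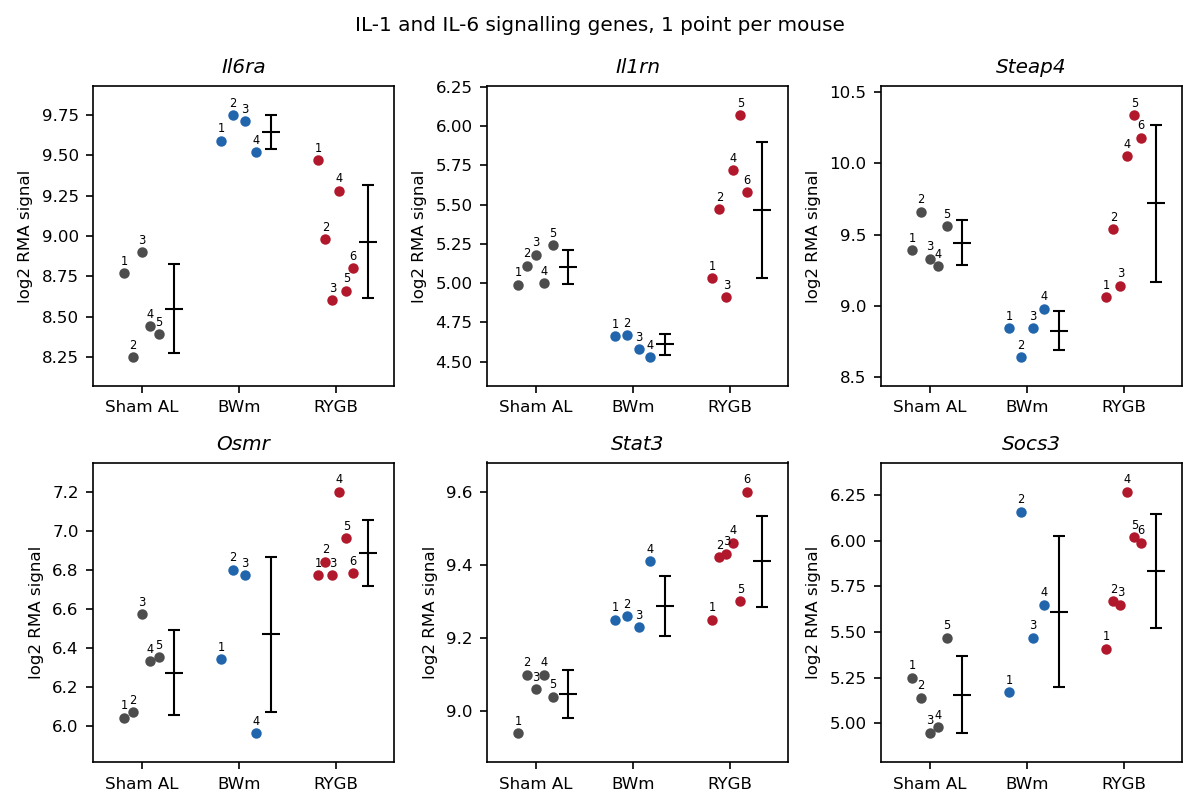
Log2 RMA signal of Il6ra, Il1rn, Steap4, Osmr, Stat3 and Socs3, with 1 point per mouse numbered by replicate and a bar at the group mean ± SD (5 Sham AL, 4 BWm and 6 RYGB mice). BWm livers are the highest group for Il6ra and the lowest for Il1rn and Steap4, and RYGB livers are all above Sham AL for Osmr and Stat3.

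Il1r1 and Il6st had every BWm liver above every Sham AL liver without passing the test. On the clusters used, the receptor genes Il1rap, Osmr and Lifr overlapped between these groups (-0.12, 0.20 and 0.25). Il1r1, the signalling IL-1 receptor, read 8.07, 8.14, 8.69 and 8.94 in BWm, 7.37, 7.58, 7.81, 7.82 and 7.91 in Sham AL, and 7.61, 8.23 and 8.94 at the lowest, median and highest in RYGB. The BWm mean was above Sham AL by 0.76 ± 0.23 (limma, adjusted p = 0.089). Il6st, the shared signalling chain gp130, read 9.85, 9.89, 10 and 10.14 in BWm, 9.56, 9.59, 9.59, 9.64 and 9.80 in Sham AL, and 9.63, 9.94 and 10.04 in RYGB. The BWm mean was above Sham AL by 0.34 ± 0.11 (adjusted p = 0.11). In all, 7 members had every BWm liver above every Sham AL liver (Fga, Fgb, Itih3, Il1r1, Il6ra, Il6st and Stat3) and 2 had every one below (Il1rn and Steap4), beside 3.46% and 3.39% of all genes.

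The 4 signalling members left are the IL-1 receptor accessory chain Il1rap, the leukaemia inhibitory factor receptor Lifr, the NF-kB inhibitor Nfkbia and the NF-kB cofactor Nfkbiz. On the clusters used, none passed in any comparison. Il1rap was -0.41 ± 0.15 in RYGB against Sham AL (limma, adjusted p = 0.23), and Lifr was -0.38 ± 0.18 against BWm (adjusted p = 0.28). Nfkbia was -0.14 ± 0.16 against Sham AL (adjusted p = 0.77). Nfkbiz ranged from 5.29 to 6.71 within RYGB, wider than the 5.33 to 5.70 of Sham AL, with a difference of 0.49 ± 0.22 (adjusted p = 0.34).

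In the wider IL-6 family and JAK-STAT list, 0 of 22 genes passed in RYGB against Sham AL. Against BWm 0 rose and 2 fell, or 9.09% beside 6.36% of all genes, a share near that background. They were Socs2 (-1.19 ± 0.31, adjusted p = 0.027), a growth hormone and STAT5 target, and the ciliary neurotrophic factor receptor Cntfr (-1.09 ± 0.27, adjusted p = 0.02). Socs2 was also the 1 gene that rose in BWm against Sham AL (2.05 ± 0.32, adjusted p = 0.0023, and 2.13 without Sham AL replicate 4, adjusted p = 0.003), or 4.55% beside 2.84%. Il6 itself had mean signals of 1.70 ± 0.18, 1.54 ± 0.20 and 1.67 ± 0.08 (SD) in RYGB, Sham AL and BWm, under the array medians. Of 14 NF-kB genes, 0 passed against Sham AL, and 2 rose against BWm (14.3% beside 6.36%). They were Tnip1, an adaptor of the NF-kB brake A20 (0.84 ± 0.12, adjusted p = 0.00028), and Tab1, a partner of the kinase TAK1 (0.44 ± 0.12, adjusted p = 0.028). Tab2 rose in BWm against Sham AL (0.51 ± 0.14, adjusted p = 0.049), and without Sham AL replicate 4 it was 0.49 (adjusted p = 0.089). Of 12 IL-1 and TNF cytokines and receptors, 0 passed against Sham AL, and Tnf (0.53 ± 0.13, adjusted p = 0.015) and its receptor Tnfrsf1a (0.44 ± 0.11, adjusted p = 0.025) rose against BWm (16.7% beside 6.36%). Il1b was 0.60 ± 0.24 above Sham AL (adjusted p = 0.27).

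RYGB livers differed among themselves in which members were high. Replicate 3 had the highest RYGB value for 10 of the 37 members, 9 of them plasma proteins, among them Saa2, Apcs, Orm1, Itih3, Itih4 and Serpina3n. Replicates 4 to 6, which are 3 of the 6 RYGB arrays, held the highest value for 21 members, a share near their share of the arrays. These members were 9 plasma proteins, 4 endotoxin sensing genes and 8 signalling genes. Replicate 1 held the lowest RYGB value for 16 members, 10 of them plasma proteins. The same shares over all genes are not given here. Relative to the mean of all 15 arrays, the mean over the 37 members was -0.1 in RYGB replicate 1, 0.04 in replicate 2, 0.31 in replicate 3, 0.4 in replicate 4, 0.32 in replicate 5 and 0.29 in replicate 6. It lay between -0.34 and -0.07 in Sham AL and between -0.18 and 0.05 in BWm. RYGB replicates 1 and 2 thus fell within the sham range, and the other 4 lay above it.

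**Figure D4:**
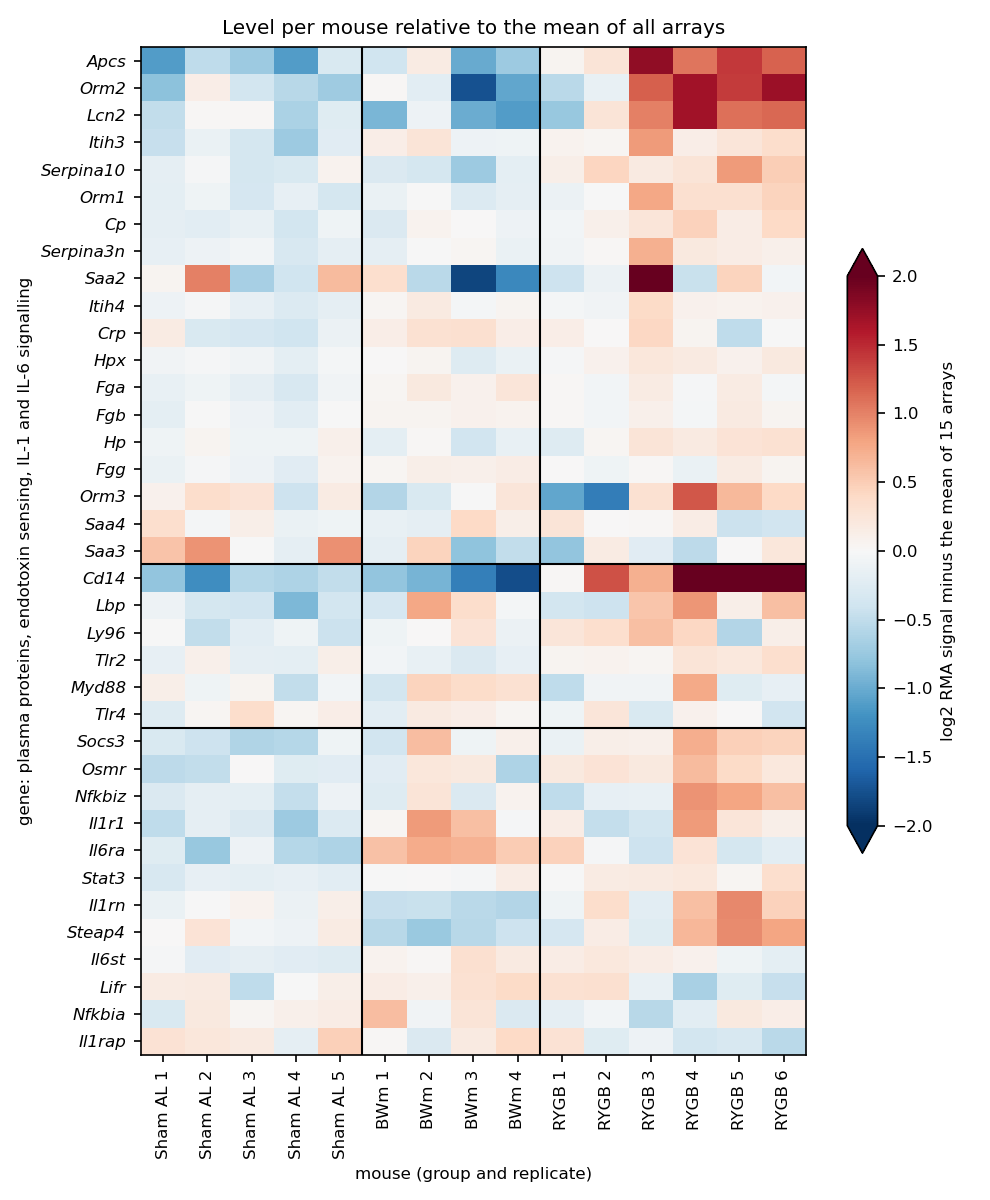
Log2 signal of each member (rows, grouped by class) on each of the 15 arrays (columns, grouped by surgery), minus the member's mean over the arrays, on a colour scale from -2 to 2. RYGB replicates 4 to 6 are high for Cd14, Lcn2 and Orm2, RYGB replicate 3 is high for Saa2, Lcn2 and Orm2, and RYGB replicate 1 is near the sham livers for most rows.

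For some members the difference between RYGB and Sham AL was larger among mice with the higher animal numbers. Among mice numbered above 60 (3 RYGB, 4 Sham AL and 4 BWm), Cd14 was 2.91 above Sham AL and 3.39 above BWm. Among those under 50 (3 RYGB and 1 Sham AL) it was 1.46 above Sham AL. Orm2 was 1.97 above Sham AL in the first set and 0.99 in the second, and Lcn2 was 1.52 and 0.65. Apcs was 1.88 and 1.8, close in both. Steap4 was 0.74 and -0.14 and Nfkbiz 1.0 and 0.01, so that neither was higher by more than 0.01 in the mice numbered under 50. The split did not order the RYGB livers for every such gene. Replicate 3, numbered under 50, read 10.44 for Orm2 and 10.73 for Lcn2, beside 10.65 to 10.96 and 10.82 to 11.39 in replicates 4 to 6. Replicates 1 and 2 read 8.71 and 9.10 for Orm2, and 8.95 and 9.97 for Lcn2. With 1 Sham AL mouse under 50 no test of the second set was made, and what the number stands for was not tested. With the animal number as a block, Orm2 (1.67, adjusted p = 0.016), Lcn2 (1.25, adjusted p = 0.031) and Nfkbiz (0.7, adjusted p = 0.043) passed in RYGB against Sham AL.

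Acute phase products outside the 37 did not move in 1 direction. Of 19 measured, 4 rose and 2 fell in RYGB against Sham AL, or 31.6% beside 1.38% of all genes. The hepatokine Fgl1 rose by 1.14 ± 0.24 (adjusted p = 0.023), the inter-alpha-trypsin inhibitor chain Itih2 by 0.44 ± 0.08 (adjusted p = 0.011), and the metal-binding metallothioneins Mt1 by 1.31 ± 0.19 (adjusted p = 0.0016) and Mt2 by 1.60 ± 0.24 (adjusted p = 0.0022). Hamp2, a paralogue of the iron hormone hepcidin, was lower by a log2 difference of -3.25 ± 0.42 (adjusted p = 0.00062), and A2m by -0.43 ± 0.10 (adjusted p = 0.036). The A2m means were 3.36 ± 0.14, 3.79 ± 0.15 and 3.37 ± 0.12 (SD) in RYGB, Sham AL and BWm, under the array medians. Without Sham AL replicate 4 all 6 still passed, with differences of 1.02 for Fgl1, 0.39 for Itih2, 1.42 for Mt1, 1.69 for Mt2, -3.26 for Hamp2 and -0.44 for A2m (adjusted p = 0.047, 0.026, 0.00074, 0.0019, 0.00096 and 0.046). Against BWm, 0 rose and Hamp2 alone fell (-4.09 ± 0.45, adjusted p = 4.5e-05), or 5.26% beside 6.36% of all genes. In BWm against Sham AL, Mt1 (1.35 ± 0.21), Mt2 (1.53 ± 0.27) and Nnmt (1.19 ± 0.24) rose and A2m fell (-0.42 ± 0.11, adjusted p = 0.044), or 21.1% beside 2.84%. Without Sham AL replicate 4, A2m lost its call (-0.44, adjusted p = 0.063), and Mt1, Mt2 and Nnmt kept theirs (adjusted p = 0.0015, 0.005 and 0.013). Hamp, which encodes the IL-6-induced hormone hepcidin, was -0.83 ± 0.23 against Sham AL (adjusted p = 0.088). Of 8 genes listed as negative acute phase proteins, a class named for its fall in inflammation, 0 passed in any comparison. Whether each listed gene, Serpina1a among them, belongs to that class was not tested. Albumin (Alb) differed in RYGB from Sham AL by 0.02 ± 0.07 (adjusted p = 0.95).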

How the data were processed

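Liver RNA of each of the 15 mice was hybridised to its own GeneChip Mouse Gene 2.0 ST array. The values deposited are log2 signals, which the authors computed by RMA across all 15 arrays in Affymetrix Expression Console 1.4.1.46, per the series' design text. The genome build behind the array's probe table is not given in the sources used here. Of 41345 transcript clusters, 23521 carry 1 symbol, 1814 several and 16010 none. Only clusters with 1 symbol were used, and the cluster with the highest mean was kept for the 1082 genes with several (Il1rap and Socs3 among the members). Of these clusters 23328 were found in RefSeq by Entrez number, and 0 symbols changed.

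Differences were tested with limma 3.58.1 (lmFit and eBayes, R 4.3.3), with 1 fit over the 3 groups, no covariates, two-sided, and Benjamini-Hochberg adjustment over 22180 genes. A gene was called at an adjusted p under 0.05. The model had 12 residual and 5.85 prior degrees of freedom, and the median standard error of a difference was 0.127 (RYGB, Sham AL), 0.135 (RYGB, BWm) and 0.14 (BWm, Sham AL). The number of arrays limits the precision. On simulated data with 200 changed genes, the same steps recovered 62.7%, 55.2% and 38.8% of 1.5-fold changes in RYGB against Sham AL, in RYGB against BWm and in BWm against Sham AL, and 94.0%, 97.0% and 92.5% of 2-fold changes, so a smaller difference can miss the threshold. Values of each Sham AL and BWm mouse, with the lowest, median and highest of the 6 RYGB mice, are given for every member called in any comparison and for the 3 members of each class with the smallest p in each comparison. From the pathway lists at most 3 called genes were to be named per list and comparison, and where more passed, the rest were named after their values were seen, as were Il6, Il1b, Hamp and Alb. The members, lists and tests were chosen with earlier results of these data known. Same-numbered replicates do not pair the mice: 4 of 13 such pairs had a correlation of deviations above 0.1 (range -0.17 to 0.19). Alternatives were other normalisations, a filter on low signals, averaged clusters, 2-group fits, another variance prior, array weights, blocks, leaving out each array, and the study's ANOVA. Promoters were read from RefSeq (GRCm38.p6), 250 bases upstream of the start.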

Additional observations from a re-analysis of the deposited data

Results flagged for a closer look

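For each member and group, the highest and lowest arrays were set against the others by Dixon's test. Of 111 such tests 5 passed, and chance gives about 1 in 20. The first set, all high, came from RYGB replicate 3. Saa2 read 12.18 there with the next RYGB liver at 9.35, Serpina3n read 12.6 with the next at 12.09, and Itih4 read 12.13 with the next at 11.84. Myd88 read 7.82 in RYGB replicate 4, with the next RYGB liver at 6.99. Lifr read 8.78 in Sham AL replicate 3, below the next Sham AL liver at 9.28.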

How the results depend on the processing

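No call changed sign over the 26 alternatives, and the median log2 difference of each class and of all members moved by less than the spread between replicates in every one, although some small medians moved by over 1.5 times without 1 array. Counts of calls moved more, and causes were not tested. In RYGB against Sham AL, 5 members were called (2 plasma proteins, 1 endotoxin sensing gene and 2 signalling genes). With genes of a mean level of at least 5 (fewer genes tested), 9 members were called, or 25% beside 4.7% of genes. Members called were also 9 with array medians subtracted (24.3% beside 1.65%) and with a trended and robust variance prior (24.3% beside 1.55%). Plasma proteins were 5 in each of these settings. With the animal number as a block, members called were 11 (29.7% beside 1.71%), with 6 plasma proteins and 4 signalling genes. Fitting 2 groups only left 1 plasma protein, and quantile normalisation left 1 signalling gene. In RYGB against BWm (8 members), the mean level filter and the animal number block each gave 2 endotoxin sensing genes. Members called were 10 with each, or 27.8% beside 18.4% of genes with the filter and 27% beside 6.75% with the block. In BWm against Sham AL (629 genes, 1 member), the filter gave 1046 genes, 4 members, 1 plasma protein and 3 signalling genes. That was 11.1% of members beside 11% of genes tested, a share near that background. The 2-group fit gave 3 members (8.11% beside 1.94%) and 3 signalling genes. The animal number block gave 5 members (13.5% beside 3.54%), 1 plasma protein and 4 signalling genes. The replicate block, whose numbers do not pair the mice, gave 174 genes, 3 members and 0 signalling genes in RYGB against Sham AL. It gave 903 genes, 5 members and 1 signalling gene in RYGB against BWm, and 325 genes in BWm against Sham AL. Members called were 8.11% beside 0.784% of genes in the first of these and 13.5% beside 4.07% in the second. Of the 15 arrays, 2 correlated best with their own number. The methods' ANOVA at an unadjusted p under 0.05 and 1.5-fold gave 9 members (24.3% beside 1.67% of genes), 5 plasma proteins and 2 endotoxin sensing genes in the first comparison. It gave 857 genes in the second, and 4 members (10.8% beside 2.5%), 1 endotoxin sensing gene and 3 signalling genes in the third. After Benjamini-Hochberg it gave 54 genes and 0 members (0 in each class) in the first. In the second it gave 833 genes, 2 members (5.41% beside 3.76%), 1 plasma protein and 0 signalling genes. In the third it gave 90 genes, 2 members (5.41% beside 0.406%) and 2 signalling genes. Leaving out each array in turn gave 144 to 398, 930 to 1544 and 284 to 646 genes in the 3 comparisons, 2 to 11, 6 to 10 and 1 to 2 members, 1 to 7, 3 to 6 and 0 to 0 plasma proteins, 1 to 2, 1 to 1 and 0 to 0 endotoxin sensing genes, and 0 to 3, 1 to 3 and 1 to 2 signalling genes. Lower signals such as those of Tlr4 and Tlr2 lie near the array medians, and their signal over background was not measured.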
